A study of Mus musculus with 32 samples.

Results

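The protocadherin genes were taken as every symbol of the RNA-seq tables that begins with Pcdh, which gave 73 of 24028 symbols. Of these, 17 belong to the alpha cluster (Pcdha), 22 to the beta cluster (Pcdhb), 22 to the gamma cluster (Pcdhg) and 12 are non-clustered genes (Pcdh followed by a number). RNA was compared between wild-type (WT) embryonic stem cells of the mouse (mESCs) and mESCs of genotype Eed -/-, with 1 library per genotype. Both libraries carry the strain label TT2. In other assays of the series the Eed -/- cells have a different line label, so whether the RNA-seq lines share a genetic background is not certain, and a difference of line and the loss of Eed cannot be told apart. Neither culture was given a treatment or a time point in the labels. Both cultures grew on gelatin in serum medium with leukemia inhibiting factor, which keeps mESCs undifferentiated. Whether the Eed -/- line is a single clone was not given in the sources used here. Eed encodes a core subunit of Polycomb repressive complex 2 (PRC2), which places the histone mark H3K27me3. The study asked how Polycomb keeps DNA methylation valleys (DMVs), long stretches of unmethylated DNA around developmental genes, free of methylation, and its RNA-seq samples address whether genes at such regions are expressed when Eed is lost. Values are FPKM, which are fragment numbers scaled to the length of the transcript and to the depth of the library.

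Protocadherins are cell surface adhesion proteins of the cadherin superfamily and are best known from the nervous system. The clustered genes lie side by side on mouse chromosome 18. Each alpha or gamma gene contributes its own first exon with its own promoter, which is spliced to constant exons shared by the whole cluster, whereas beta genes stand alone with a single coding exon. Single neurons use a few of these promoters, a choice that involves CTCF, cohesin and DNA methylation, and the proteins on the cell surface let a neuron tell its own branches from those of other neurons. Non-clustered protocadherins have their own loci and act mainly in weaker, regulated adhesion. The delta-1 group (Pcdh1, Pcdh7, Pcdh9, Pcdh11x) and the delta-2 group (Pcdh8, Pcdh10, Pcdh17, Pcdh18, Pcdh19) differ in their cytoplasmic tails, and Pcdh12, Pcdh15 and Pcdh20 are commonly set apart from both.

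With 1 library per genotype no difference below has a replicate check, so no test was made and no p-value is given. The step between low FPKM values put the depth at about 7240000 fragments in WT and 6450000 fragments in the library labelled Eed-/-, and fragment numbers below derive from these depths. Intervals are exact 95% intervals for counting error only, and ratios of fragments are the library labelled Eed-/- over WT after scaling by the median ratio of expressed genes (0.894), so they are higher than the plain ratio of FPKM values. Eed itself had 63.0 FPKM in WT against 70.9 FPKM in the library labelled Eed-/-. The loss of Eed is thus not seen in the level of its transcript, and since the table holds 1 value per symbol, a deleted exon could not be looked for. The study itself checked the loss of Eed through the mark H3K27me3, by western blots and ChIP-seq, which were not analysed here. The pluripotency genes Pou5f1 (393 and 373 FPKM) and Nanog (114 and 176 FPKM) were high in both libraries. X-linked genes other than protocadherins were shifted, with a median change of 0.46 on the log2 scale over 523 genes.

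Protocadherin RNA was scarce in both libraries. Pcdh1 was the sole member with at least 2 FPKM in WT, a level that 39.0% of all symbols reached, and no member reached it in the library labelled Eed-/-. Of the 73 genes, 31 were at 0 in the WT library and 30 in that labelled Eed-/-, where a value under 0.001 FPKM is read as 0. That is 42.5% and 41.1% of the family, against 35.4% and 34.8% of all symbols. There were 33 genes with RNA in both libraries, 9 in WT alone, 10 in the library labelled Eed-/- alone and 21 in neither. This split was not counted over all symbols, so it is not read as a trait of the family. Genes with RNA in 1 library alone held at most about 3 fragments there, except Pcdhac2 with about 7. A gene at 0 here is one that was not detectable at this depth, since even 3 fragments of a typical alpha transcript would give only 0.0810 FPKM in WT. In these bulk samples, fewer cells that express a gene and less RNA per cell cannot be told apart.

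**Figure D1:**
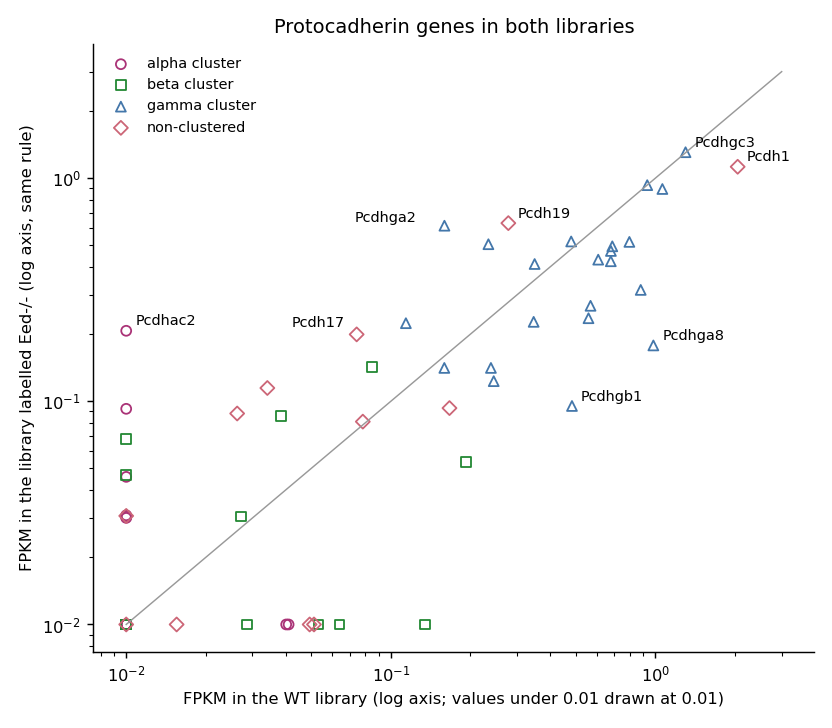
FPKM of each protocadherin gene in the WT library (horizontal, log axis) and in the library labelled Eed-/- (vertical, log axis), with values under 0.01 drawn at 0.01 and the line of equal values in grey. Gamma genes sit towards the upper right, alpha and beta genes sit near the axes, and Pcdh1 lies farthest to the right at 2.05 FPKM.

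The clusters differed in level. Summed over its genes, the gamma cluster had 12.5 FPKM in WT against 9.47 FPKM in the library labelled Eed-/-. The non-clustered genes summed to 2.82 and 2.36 FPKM. The beta genes summed to 0.622 and 0.427 FPKM, and the alpha genes to 0.0814 and 0.467 FPKM. Gamma RNA therefore made up most of the protocadherin RNA in both libraries, and each of its 22 genes was detected in both.

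For changes, libraries were quantile-normalized and differences were taken in log2(FPKM + 1), the library labelled Eed-/- minus WT, over genes whose normalized FPKM averaged at least 0.1. This filter left 29 of the 73 genes, namely all 22 gamma genes, the alpha gene Pcdhac2, the beta genes Pcdhb14 and Pcdhb22, and Pcdh1, Pcdh17, Pcdh18 and Pcdh19. Pcdhac2 passed only through its value in the library labelled Eed-/- (normalized 0.0106 FPKM in WT against 0.203), so the filter fixed its direction. Pcdh17, Pcdh18, Pcdhb14, Pcdhb22 and Pcdhgb1 were also under 0.1 normalized FPKM in 1 library. None of the 29 was at least 2-fold higher and none was at least 2-fold lower, against 3.8% and 3.98% of the 14835 genes used in the whole table. In numbers these are 564 higher and 590 lower genes, and without scaling between libraries they were 455 and 801, again with no protocadherin among them. Among genes with a mean of 0.1 to 2 FPKM, where the protocadherins lie, these shares were 2.76% and 2.49%. With 1 added to each value, a gene must hold at least 1 normalized FPKM in a library to reach 2-fold, and 3 protocadherins did so in WT against 2 in the library labelled Eed-/-. With 0.1 added instead, Pcdhac2 and Pcdhga2 were past 2-fold in the higher direction and Pcdhga8, Pcdhgb1 and Pcdhgb6 in the lower one, against 11.4% and 12% of all genes used. The median change of the 29 genes was -0.13, beside 0.0090 for all genes used.

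Counting error was considered gene by gene. The interval of the fragment ratio lay above 1 for 3 of the 29 genes (Pcdh19, Pcdhac2, Pcdhga2) and below 1 for 4 (Pcdh1, Pcdhga8, Pcdhgb1, Pcdhgb6). In the whole table it lay above 1 for 24.6% of genes and below 1 for 22.7%, and for genes of 0.1 to 2 FPKM these shares were 16.1% and 10.1%. Differences past counting error were thus common between this pair of libraries, and the protocadherin counts are near the shares of genes of like level. Pcdhac2 adds no support to the count of 3, since it passed the filter only through the library in which it was higher. The same holds for Pcdhgb1 in the count of 4, with 0.477 normalized FPKM in WT against 0.0901 in the library labelled Eed-/-.

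The gamma cluster was somewhat lower in the library labelled Eed-/-. Its genes held about 411 fragments in WT against 277 in the library labelled Eed-/-, a ratio of 0.846 with an interval of 0.724 to 0.988. Of the 22 genes, 15 were lower and 7 higher, where 49% of all genes of 0.1 to 2 FPKM were lower and 51% higher. The median change was -0.14, and the summed level differed by -0.33 on the log2(FPKM + 1) scale. The annotated full-length gamma transcripts share their last 3 exons, which make up 44.9% of the median transcript of 4708 bp, so fragments from this part were divided between genes by Cufflinks. Gene values within the cluster are hence not independent of each other, and their intervals do not cover that division.

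The subclasses of the gamma cluster are named after sequence similarity. The 12 gamma A genes summed to 7.17 FPKM in WT against 5.06 FPKM in the library labelled Eed-/-, with a fragment ratio of 0.791 (0.639 to 0.975), and 10 of them were lower. The 7 gamma B genes summed to 3.71 and 2.75 FPKM with a ratio of 0.823 (0.613 to 1.10), and 4 were lower. The 3 gamma C genes summed to 1.66 and 1.65 FPKM with a ratio of 1.12 (0.740 to 1.68). The intervals of the 3 subclasses overlap, and a difference between subclasses was not tested.

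Pcdhgc3, a C-type isoform studied in dendrite growth and Wnt signalling, had the highest level of the cluster in both libraries, with 1.30 FPKM in WT against 1.31 FPKM in the library labelled Eed-/-. It held 10.4% of the summed gamma FPKM in WT against 13.8% in the library labelled Eed-/-. The other C-type genes were low: Pcdhgc4, needed for the survival of interneurons, had 0.245 and 0.123 FPKM, and Pcdhgc5 had 0.114 and 0.224 FPKM. C-type genes lie at the end of the cluster next to the constant exons. Of the genes just upstream of them, Pcdhga11 had 1.06 and 0.894 FPKM, Pcdhgb8 had 0.234 and 0.506 FPKM and Pcdhga12 had 0.931 and 0.930 FPKM, all within counting error.

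The largest difference in FPKM within the cluster was at Pcdhga8, with 0.982 FPKM in WT against 0.178 FPKM in the library labelled Eed-/-. These correspond to about 32 and 5 fragments, a ratio of 0.196 with an interval of 0.0597 to 0.507, and its change of -0.74 was the farthest from 0 of all 29 genes. Pcdhgb6 had 0.880 and 0.316 FPKM, a ratio of 0.390 (0.162 to 0.845). Pcdhgb1 had 0.484 and 0.0953 FPKM, a ratio of 0.235 (0.0440 to 0.822), but it passed the filter only through its WT value. These 3 genes are not adjacent in the cluster and come from both the A and the B subclass.

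Pcdhga2 stood on the other side, with 0.159 FPKM in WT against 0.612 FPKM in the library labelled Eed-/-, or about 5 and 18 fragments. Its ratio was 4.52 with an interval of 1.62 to 15.6, and its change was 0.48. It lies between Pcdhga1 (0.797 and 0.518 FPKM) and Pcdhga3 (0.687 and 0.495 FPKM), and for both of these the interval of the ratio included 1.

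The remaining gamma genes of at least 0.5 FPKM in a library were each within counting error. Among gamma A genes, Pcdhga10 had 0.678 and 0.424 FPKM, Pcdhga9 had 0.569 and 0.268 FPKM and Pcdhga4 had 0.559 and 0.236 FPKM. Among gamma B genes, Pcdhgb7 had 0.679 and 0.472 FPKM, Pcdhgb4 had 0.608 and 0.431 FPKM and Pcdhgb5 had 0.480 and 0.520 FPKM. All but Pcdhgb5 were lower in the library labelled Eed-/-. Pcdhga5, Pcdhga6, Pcdhga7 and Pcdhgb2 stayed under 0.5 FPKM in both libraries, with 0.159 to 0.350 FPKM in WT.

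The order of gamma genes by level was partly shared. Pearson's r between the libraries was 0.64 over the 22 genes and Spearman's rho was 0.47. Without Pcdhgc3, r was 0.48 and rho 0.39, so the relation leans on that gene. The 5 highest genes held 41.1% of the gamma FPKM in WT against 45.0% in the library labelled Eed-/-, and 3 genes were among the highest 5 in both. Genes of 1 pair of libraries are not replicates, and these correlations across genes are a description.

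**Figure D2:**
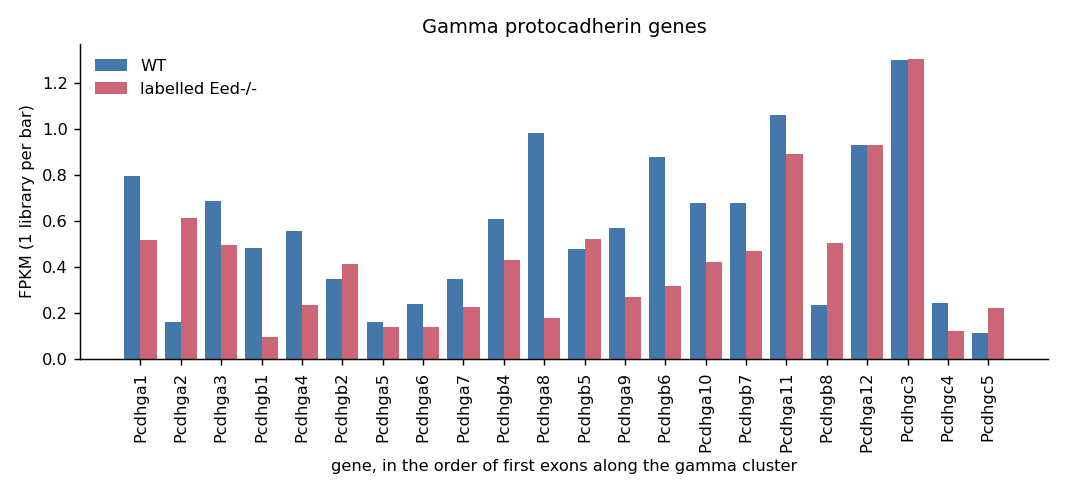
FPKM of the 22 gamma genes in the order of their first exons along the cluster, with 1 bar for the WT library and 1 for the library labelled Eed-/-. Pcdhgc3 is highest in both at 1.30 and 1.31 FPKM, and Pcdhga8 and Pcdhga2 differ in opposite directions.

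Alpha RNA was at the limit of detection. In WT, 15 of the 17 alpha symbols were at 0, and Pcdha12 (0.0411 FPKM) and Pcdha4 (0.0402 FPKM) together stood for about 3 fragments. In the library labelled Eed-/-, 10 symbols were at 0 and 7 others, none of them Pcdha4 or Pcdha12, stood for about 15 fragments. No alpha gene was detected in both libraries, but about 3 and 15 fragments over 17 symbols leave little room for overlap. The like share over all symbols was not counted. Fragments of shared exons are also divided between alpha symbols, so this is not read as a change of isoform. The cluster's fragment ratio was 6.28 with an interval of 1.78 to 33.8, which rests on these few fragments.

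The highest alpha value in the library labelled Eed-/- was that of Pcdhac2, a C-type isoform that serotonergic neurons need to spread their axons. It was at 0 in WT and at 0.207 FPKM in the library labelled Eed-/-, which is about 7 of the 15 fragments. Set against the limit of 3 fragments in WT the value is 2.86-fold higher, and the interval of the ratio, which also covers the counting error of the 7 fragments, begins at 1.81. Neither figure supports a rise, since Pcdhac2 passed the filter only through the library labelled Eed-/- and is its highest alpha value. That interval also does not cover the division of shared fragments between alpha genes. The annotated alpha transcripts share their last 3 exons too, 54.0% of the median transcript of 5296 bp, and the 3 symbols with the suffix -g (Pcdha4-g, Pcdha6-g, Pcdha7-g) carry 0.138 FPKM of the alpha sum in the library labelled Eed-/-. Without those symbols the ratio was 4.60 (1.22 to 25.7). The change of the summed level was 0.14 in log2(FPKM + 1) and 0.35 when values under 0.001 FPKM were set to 0 first, because quantile normalization gives the residual values of WT alpha genes a rank above true zeros.

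Beta genes gave single fragments. In WT, 8 of the 22 had RNA, and in the library labelled Eed-/- 6 had RNA, with 12 at 0 in both. The cluster held about 14 fragments in WT against 9 in the library labelled Eed-/-, a ratio of 0.807 (0.308 to 2.00), so no difference was detectable at this depth. The highest were Pcdhb22, with 0.192 and 0.0537 FPKM (about 4 and 1 fragments), and Pcdhb14, with 0.0850 and 0.143 FPKM (about 2 and 3 fragments). Beta genes have no shared exons, and a median of 3.84% of the 50-base words of a beta transcript recur in another gene's transcript, at most 12.0% (Pcdhb12). The fragment numbers of all 10 beta genes with RNA came out within 0.1 of a whole number.

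**Figure D3:**
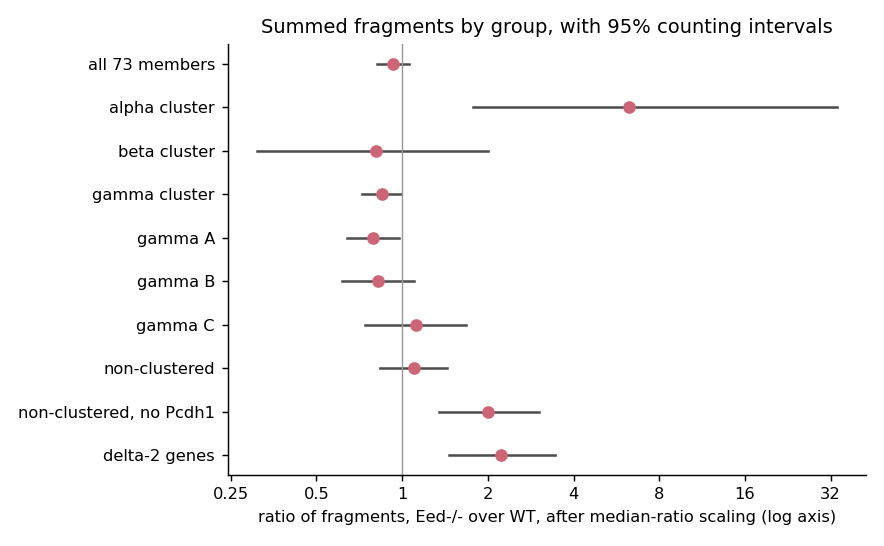
Ratio of summed fragments, the library labelled Eed-/- over WT after median-ratio scaling, for the family and its groups on a log axis, with 95% counting intervals as bars. The gamma interval ends just under 1 (0.988), the beta interval spans 1, and the alpha interval begins at 1.78 and is wide.

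Among non-clustered genes, Pcdh1 had most of the RNA in WT. Pcdh1 is a delta-1 protocadherin of epithelia and brain, and lies on chromosome 18 of mm9 (chr18:38345569-38371707, - strand), distal to the gamma cluster. It had 2.05 FPKM in WT against 1.12 FPKM in the library labelled Eed-/-, about 78 and 38 fragments. The ratio was 0.612 with an interval of 0.404 to 0.913, and the change was -0.48. Other genes of chromosome 18 had a median change of 0.11 over 326 genes, and 37.7% of them were lower, as Pcdh1 was.

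Pcdh19, a delta-2 protocadherin that pairs with N-cadherin and is mutated in a form of human epilepsy, was higher in the library labelled Eed-/-. It had 0.278 FPKM in WT against 0.628 FPKM in the library labelled Eed-/-, about 20 and 41 fragments. The ratio was 2.57 with an interval of 1.47 to 4.64, and the change was 0.36. Pcdh19 lies on the X chromosome (mm9, chrX:130117402-130223532, - strand), where the median change was 0.46 and 82.8% of genes were higher. The change of Pcdh19 is below that median, although the added 1 understates changes of low genes, and the part of the X-wide shift in it was not tested.

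The other delta-2 genes were low. Pcdh17, which organizes presynaptic terminals in the basal ganglia, had 0.0743 and 0.199 FPKM (about 5 and 12 fragments, ratio 3.01, interval 0.988 to 10.9). Pcdh10, which recruits the WAVE actin regulators during axon growth, had 0.0342 and 0.115 FPKM, about 2 and 6 fragments. Pcdh8, which takes part in the removal of N-cadherin from synapses, had 0.0784 and 0.0811 FPKM, and Pcdh18 had 0.167 and 0.0932 FPKM. For none of these 4 genes did the interval leave out 1. Summed over the 5 delta-2 genes, about 36 fragments in WT stood against 64 in the library labelled Eed-/-, a ratio of 2.23 (1.46 to 3.46). Without X-linked Pcdh19, an exclusion chosen after its value was seen, the ratio was 1.93 (0.962 to 3.97). The ratio was then little lower, but with about 15 and 23 fragments left its interval took in 1.

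The other delta-1 genes and the remaining genes gave at most a few fragments. Pcdh9 had 0.0263 and 0.0882 FPKM, Pcdh11x had 0.0493 FPKM in WT against 0 in the library labelled Eed-/-, and Pcdh7 was at 0 in both. Pcdh12, known from vascular endothelium and placenta, had 0.0512 FPKM in WT alone, and Pcdh15, part of the tip link of inner ear hair cells, had 0.0155 FPKM in WT alone. Pcdh20 had 0.0306 FPKM in the library labelled Eed-/- alone. None of these exceeded 3 fragments in a library.

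**Figure D4:**
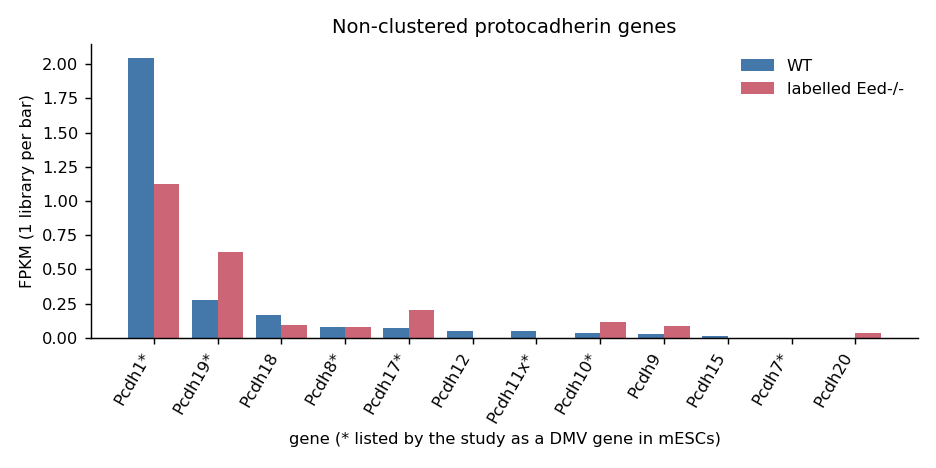
FPKM of the 12 non-clustered protocadherin genes, with 1 bar for the WT library and 1 for the library labelled Eed-/-, ordered by the WT value; an asterisk marks genes that the study lists as DMV genes in mESCs. Pcdh1 is lower (2.05 and 1.12 FPKM) and Pcdh19 higher (0.278 and 0.628 FPKM) in the library labelled Eed-/-.

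The study lists 7 of the 73 genes as DMV genes in mESCs, all of them non-clustered (Pcdh1, Pcdh7, Pcdh8, Pcdh10, Pcdh11x, Pcdh17, Pcdh19). Summed, they had 2.56 FPKM in WT against 2.15 FPKM in the library labelled Eed-/-, with a fragment ratio of 1.13 (0.852 to 1.50). Without Pcdh1 they had 0.514 and 1.02 FPKM and a ratio of 2.32 (1.50 to 3.66), to which Pcdh19 gave most of the fragments. The 5 non-clustered genes that are not listed had 0.260 and 0.212 FPKM and a ratio of 0.753 (0.225 to 2.29). Leaving out Pcdh1 was chosen after its values were seen, and the non-clustered genes as a whole had a ratio of 1.10 (0.837 to 1.44) with it and 2.00 (1.34 to 3.02) without it. The fragment ratio was thus above 1 either way, and its interval left out 1 only without Pcdh1. The direction of the FPKM sum did turn on Pcdh1, with a difference of -0.18 on the log2(FPKM + 1) scale with it and 0.28 without it. Leaving out X-linked Pcdh19 as well, also chosen after its value was seen, gave a fragment ratio of 1.48 (0.809 to 2.75). The difference of the FPKM sum was then 0.021. Fragment sums give long transcripts such as that of Pcdh19 (10273 bp) more weight than FPKM sums do.

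The DMV genes also differ in promoter sequence. Of the 250 bases before the annotated start, 4 are shown, 3 with many CG dinucleotides and 1 with few among the listed genes, from RefSeq on GRCm38.p6, a later build than that of the expression values. They cover chr3:45378148-45378397 (+ strand), chr14:84443313-84443562 (+ strand), chrX:133688994-133689243 (- strand) and chr5:57717831-57718080 (+ strand). Each is written 5' to 3' along the gene, with CG dinucleotides, the sites of DNA methylation in mammals, in capitals.
Pcdh10: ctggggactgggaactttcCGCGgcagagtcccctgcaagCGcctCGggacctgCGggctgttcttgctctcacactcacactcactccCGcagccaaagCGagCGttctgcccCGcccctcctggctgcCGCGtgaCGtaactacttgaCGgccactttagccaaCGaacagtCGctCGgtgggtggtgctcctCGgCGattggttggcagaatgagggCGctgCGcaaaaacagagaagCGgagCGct
Pcdh17: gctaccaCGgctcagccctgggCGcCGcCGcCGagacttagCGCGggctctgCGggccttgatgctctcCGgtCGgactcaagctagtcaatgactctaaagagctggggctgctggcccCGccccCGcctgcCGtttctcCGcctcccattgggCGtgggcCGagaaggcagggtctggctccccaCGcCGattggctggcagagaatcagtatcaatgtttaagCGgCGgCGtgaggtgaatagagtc
Pcdh19: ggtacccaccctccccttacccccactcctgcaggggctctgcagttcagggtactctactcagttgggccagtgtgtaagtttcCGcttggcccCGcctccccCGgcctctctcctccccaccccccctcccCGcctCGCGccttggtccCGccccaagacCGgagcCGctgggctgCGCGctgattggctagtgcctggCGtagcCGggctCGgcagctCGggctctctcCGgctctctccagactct
Pcdh7: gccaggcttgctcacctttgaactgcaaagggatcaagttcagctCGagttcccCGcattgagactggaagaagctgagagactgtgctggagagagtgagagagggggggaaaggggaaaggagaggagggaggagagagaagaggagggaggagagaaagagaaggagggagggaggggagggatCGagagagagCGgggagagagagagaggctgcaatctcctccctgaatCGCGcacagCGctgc

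Pcdh10 held 22 CG dinucleotides, Pcdh17 held 21 and Pcdh19 held 16, whereas Pcdh7, the DMV gene at 0 in both libraries among the 4, held 7. Pcdh8, a listed gene with RNA in both libraries whose window is not printed, held 11. The listed genes with RNA and a promoter entry thus ranged from 11 to 22. Pcdh1, the listed gene with the most RNA, had no entry, and neither had Pcdh11x. The median was 16 over the 9 protocadherin promoters with an entry and 6 over the 27025 promoters of the reference table. Pcdh18, which is not listed as a DMV gene, held 23, the most of the 9, so a high CG count in this window and the listing did not go together in that case. The letters CCAAT, on either strand (ATTGG on the other), occurred in 8 of the 9 windows and in 34.5% of all promoters. TATAAA, on either strand, occurred in Pcdh8 and Pcdh15 and in 13.0% of all promoters. CCAAT was searched after the sequences had been seen, and a match is not evidence of binding.

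The genes around the protocadherin clusters showed no common direction. Within 500 kb of the clusters (mm9, chr18:37089939-38001527) lie 38 other annotated genes, of which 29 had a value. The filter left 26 genes, with a median change of -0.030, 12 higher and 14 lower. Of these, 2 were at least 2-fold lower: Hbegf, a growth factor of the EGF family, with 9.32 FPKM in WT against 3.03 FPKM in the library labelled Eed-/-, and Tmco6, with 7.18 and 2.65 FPKM. None was at least 2-fold higher. Over all genes used, 3.98% were at least 2-fold lower and 3.8% at least 2-fold higher. The neighbourhood held far more RNA than the clusters, with a summed 474 FPKM in WT.

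Other members of the cadherin superfamily were compared as relatives of the protocadherins. Of 46 genes, 45 had a value and 23 passed the filter, 11 higher and 12 lower, with a median change of -0.068. The gene of E-cadherin, Cdh1, which holds mESC colonies together, was the sole one past 2-fold, with 62.0 FPKM in WT against 24.3 FPKM in the library labelled Eed-/- (change -1.11). Fat1, a giant atypical cadherin, had 40.6 and 21.4 FPKM, and Cdh2, the gene of N-cadherin, had 1.89 and 0.798 FPKM. On the higher side, Cdhr1 of photoreceptors had 0 and 0.676 FPKM and Cdh4 had 0.607 and 1.46 FPKM.

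Regulators of clustered protocadherin promoters were expressed throughout. Of 22 genes, 21 had a value and all 21 passed the filter, 10 higher and 11 lower, with a median change of -0.034. Past 2-fold stood the cohesin subunit gene Smc1a alone, with 30.9 FPKM in WT against 59.0 FPKM in the library labelled Eed-/- (change 1.12), which is X-linked like Pcdh19. The cohesin loader gene Nipbl had 9.62 and 16.0 FPKM and the cohesin gene Smc3 had 46.1 and 62.5 FPKM. Smchd1, a silencing factor of the protocadherin clusters and of the inactive X chromosome, had 18.9 and 11.2 FPKM, and Dnmt3a, a DNA methyltransferase, had 17.6 and 10.8 FPKM.

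Partners and downstream signalling genes gave a similar picture. Of 25 genes, 24 passed the filter, 13 higher and 11 lower, with a median change of 0.081. Adam10, the gene of the protease that sheds protocadherin ectodomains, was the sole one past 2-fold, with 2.42 FPKM in WT against 9.32 FPKM in the library labelled Eed-/- (change 1.69). Ptk2b, a focal adhesion kinase gene that gamma and alpha protocadherins inhibit, had 2.37 and 4.18 FPKM, and the WAVE gene Wasf1 had 2.92 and 4.58 FPKM. Abi2, another WAVE subunit gene, had 14.6 and 7.23 FPKM.

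The 11 PRC2 genes all passed the filter, 6 higher and 5 lower, with a median change of 0.073. Phf19, an accessory subunit gene, was past 2-fold, with 13.7 FPKM in WT against 2.61 FPKM in the library labelled Eed-/- (change -1.92). Ezh2, the gene of the catalytic subunit, had 34.2 and 17.7 FPKM, and Suz12 had 67.3 and 67.5 FPKM.

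**Figure D5:**
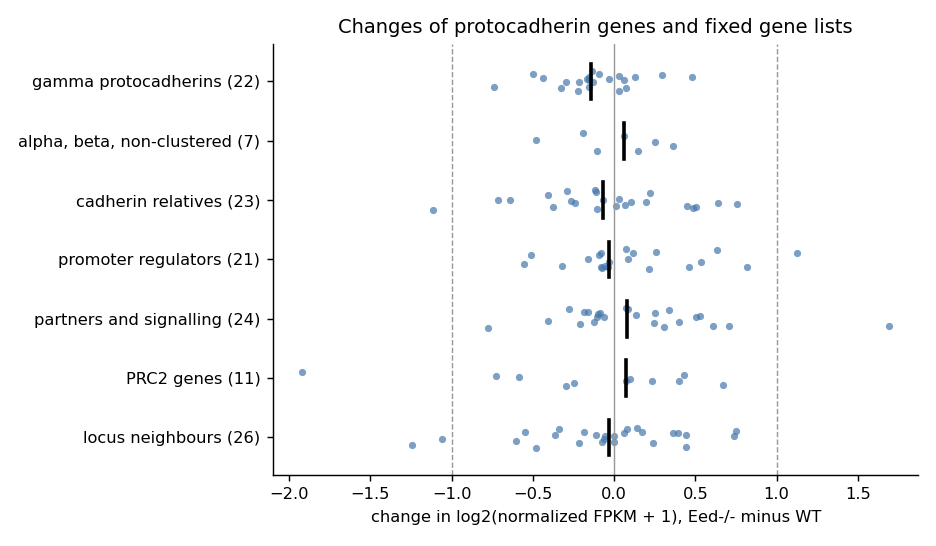
Change in log2(normalized FPKM + 1), the library labelled Eed-/- minus WT, for each gene that passed the filter in the protocadherin groups and the lists (number of genes in brackets), with the median as a black bar and dashed lines at 2-fold. All 29 protocadherin genes lie between the dashed lines, from -0.74 to 0.48.

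Markers of other cell types differed between the libraries, and their part in the protocadherin values was not tested. Over all genes used, 50.9% were higher and 49% lower, with 3.8% at least 2-fold higher and 3.98% at least 2-fold lower. The lists are small, so their splits beside these shares are a description. The summed level of 11 primitive endoderm markers was 18.1 FPKM in WT against 63.6 FPKM in the library labelled Eed-/-, with 8 of 8 genes used higher. The 3 past 2-fold gave most of that sum: Lama1 (8.25 and 33.5 FPKM), Col4a1 (5.62 and 19.1 FPKM) and Col4a2 (2.68 and 6.97 FPKM). The transcription factor genes were low, with Gata4 at 0.431 and 1.35 FPKM, Gata6 at 0.184 and 0.514 FPKM and Sox17 at 0 and 0.449 FPKM. Foxa2, which did not pass the filter, had 0.0731 and 0 FPKM, and Afp and Ttr were at 0 in both. The 11 neural progenitor markers summed to 18.4 and 26.6 FPKM, with 5 of 6 genes used higher and Fabp7, Hes5 and Neurog2 at 0 in both. The 14 neuronal markers summed to 210 and 186 FPKM, mostly from Tubb3 and Stmn2. Most of that list went the other way, with 8 of 11 genes used higher and a median change of 0.30, and Dcx was at 0 in both. The 12 fibroblast markers summed to 4.02 and 12.5 FPKM, with 4 of 6 genes used higher and Dcn at 0 in both. Thy1 (0.976 and 6.97 FPKM) gave most of that difference, whereas the collagen gene Col1a1 had 0.460 and 0.137 FPKM. The 10 trophoblast markers summed to 23.4 and 12.2 FPKM, with 5 of 7 genes used lower and Elf5, Tpbpa and Prl3d1 at 0 in both. The keratin genes Krt8 (6.88 and 3.53 FPKM) and Krt18 (12.1 and 4.69 FPKM) gave most of that sum, and Eomes was past 2-fold in the other direction (0.478 and 1.93 FPKM). The 12 mESC markers summed to 1576 and 1803 FPKM, with 9 of 12 higher.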

How the data were processed

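RNA-seq of WT and Eed -/- mESCs was analysed, with 1 library each. Its other assays were not analysed here. The libraries were strand-specific and made from total RNA depleted of ribosomal RNA. The authors mapped reads to mm9 with TopHat and deposited FPKM per gene symbol from Cufflinks. The submitters' processing notes name Bowtie2 2.2.2, TopHat2 2.0.11 and Cufflinks 2.2.1. The study quantile-normalized and log-transformed FPKM for display. The annotation, and whether the deposited values had been scaled, are not given in the sources used here.

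Values of repeated symbols were summed (no protocadherin symbol was repeated), libraries were quantile-normalized, and 1 was added before taking log2. Genes with a mean of at least 0.1 were used. Depth was read from the spacing of low FPKM values over 5103 single-transcript genes of at least 1000 bp (GENCODE vM1), with 180 bp taken off each length; 80.3% and 80.5% of low values lay within 0.1 of a whole fragment. Alpha and gamma genes were given the median length of their cluster's transcripts, since few have a transcript of their own in that annotation. Ratios were divided by the median ratio of 0.894 over genes of at least 2 FPKM, with Clopper-Pearson intervals. The steps were tested on simulated data. Analyses used Python 3.11.15 and scipy 1.17.1.

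Lists were cadherin relatives, promoter regulators, partners, PRC2 genes, genes within 500 kb and markers of 6 cell types. Genes of at least 0.5 FPKM in a library were named with values, as were at most 5 genes of each other list. The members and lists were chosen with earlier results of these data known. DMV genes were read from the study as names only.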

Additional observations from a re-analysis of the deposited data

How the results depend on the processing

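No paired analysis was possible because the RNA-seq has 1 library per genotype and no replicate numbers. Changes of scale moved values most, since protocadherin levels are low against a pseudocount of 1. With 0.1 added, 2 genes were at least 2-fold higher and 3 lower, and the median changes were -0.38 over all used protocadherins, 1.45 for alpha (Pcdhac2 alone), -0.33 for beta and -0.39 for gamma. With 0.01 added, 5 were higher and 6 lower, against 12.9% and 13.4% of all genes used, with medians of -0.45 over all, 3.36 for alpha, -0.63 for beta and -0.45 for gamma, and the summed levels differed by 0.55 for alpha and -0.78 for beta. Median-ratio scaling gave 0.49 for the alpha sum. Without a filter the alpha median was -0.016, and with a mean of at least 1 the median over all was -0.22. Without Pcdh1, an alternative chosen after seeing the data like those without Pcdhgc3, without the -g symbols and with values under 0.001 set to 0, the summed non-clustered level differed by 0.28, the opposite direction to the value with it. The other 81 of these values stayed within counting error or, for medians, the spread among genes, or within 1.5 times for counts. Among them is the gamma median with a mean of at least 1. It was 0.032, from Pcdhgc3 alone, opposite in direction to the main value of -0.14. Depth limits the alpha and beta clusters to a few fragments, and nothing here measures the spread between cultures.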
